A study of Mus musculus with 6 samples.

Results

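The genes for neutrophil granule proteins and alarmins were examined in spleen cells of mice with and without the miR-144/451 locus. The 10 genes were S100a8, S100a9, Lcn2, Ngp, Camp, Ltf, Retnlg, Mmp8, Mmp9 and Cxcr2, chosen by symbol for their place in the neutrophil program, and each matched 1 of the 44678 gene identifiers in the files. RNA was measured by mRNA sequencing with a SMARTER kit in 3 wild type (WT) and 3 miR-144/451 knockout (KO) libraries. The labels describe all 6 as CD8a+ leukocytes from the spleen, without treatment. The KO mice lacked the genomic segment with both miRNA precursors on a C57BL/6J background, and no other allele or agent was named for either genotype. The mice were young adults, by the single age range that the methods give for all animals of the study, and the sex of the sequenced mice is not given in the sources used here. No separate mouse was named for each library, so the p-values below measure the spread between these libraries.

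Neutrophils build their granules in waves while they mature. Primary granules with myeloperoxidase form first, specific granules with lactoferrin, lipocalin 2, cathelicidin and neutrophilic granule protein follow at the myelocyte stage, and gelatinase granules with MMP9 come later still. Chemokine receptors such as CXCR2 appear as the cell becomes ready to leave the marrow. S100A8 and S100A9 form calprotectin, a calcium-binding complex that fills the neutrophil cytosol and acts as an alarmin when released. Camp, Ngp, Ltf and Lcn2 are called early granule genes here, and Mmp8, Mmp9, Retnlg and Cxcr2 mature genes. These class names are labels, and the stage at which each gene is expressed was not examined. The S100 pair stood in neither class. None of these products is typical of CD8 T cells.

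Libraries totalled between 8143971 and 8876570 counts, so that 3 counts, taken as the floor of detection, corresponded to 0.338 to 0.368 CPM, that is, counts scaled to a common library total. All 10 genes passed the filter on low counts, with between 25 counts (Mmp8 in WT replicate 3) and 3116 counts (S100a9 in KO replicate 2). The labelled cell type was checked against its markers. Summed CPM of the CD8 T cell genes Cd8a, Cd8b1, Cd3e, Cd3d and Trac ran from 2031 to 2820 in WT and from 1343 to 2706 in KO, and that of the cDC1 genes Xcr1, Clec9a, Itgax, Batf3 and Itgae from 249 to 304 and from 269 to 317. No gene of either list was at 0 in all libraries. Itgax (104 to 148 CPM over all libraries) and Itgae (77.7 to 151 CPM) had the highest CPM of the cDC1 genes and weigh most in that sum. Xcr1 stood at 15.4 to 17.7 CPM in WT and 16.4 to 33.6 CPM in KO, and Clec9a at 16.7 to 22.4 and 17.2 to 38.9 CPM. Neutrophil markers were present in every library too, as were monocyte and erythroid markers, except that the neutrophil marker Ly6g was below the floor in WT replicate 3 (1 count). In a bulk sample, fewer cells of a type and less RNA per cell cannot be told apart. The libraries also stood apart from each other in a way that genotype did not follow: WT replicate 1 and KO replicates 1 and 2 held several times more of most of the 10 transcripts than WT replicates 2 and 3 and KO replicate 3.

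Positions are from GENCODE M21 on GRCm38. S100a8 (chr3:90668978-90670035, plus strand) and S100a9 (chr3:90692632-90695721, minus strand) are neighbours in the S100 cluster, with 22.6 kb between them. Camp (chr9:109847379-109849617), Ngp (chr9:110419747-110423012) and Ltf (chr9:111019271-111042767) lie within 1.2 Mb of chromosome 9. Mmp8 (chr9:7558456-7568485) is on the same chromosome but far from them. Lcn2 (chr2:32384633-32388252) and Mmp9 (chr2:164940780-164955850) are far apart on chromosome 2. Retnlg is at chr16:48872621-48874496 and Cxcr2 at chr1:74153989-74161246. No exon of any of the 10 overlapped an exon of another gene. Words of 31 exon bases were unique for 8 of the 10 genes, whereas 5.51% of those of Retnlg (with Retnla) and 12.1% of those of Cxcr2 also occurred in other genes, so the counts of these 2 genes are less certain.

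Promoters are shown because the genes varied together across libraries (below). RefSeq (GRCm38.p6) gave a promoter, from 250 bases before the start to 50 after it, for 9 of the 10 genes, and Mmp9 was not matched. These were searched on both strands for 3 words: TTGCNNAA, a C/EBP-type word, GAGGAAGT, a PU.1-type word, and, for GATA factors, the word GATAAG. The C/EBP-type word was in 6 of the 9 promoters against 10.8% of 32851 promoters, the PU.1-type word in 2 of 9 against 3.20%, and the GATA word in 0 of 9 against 7.44%. C/EBP and PU.1 factors act in granulocyte differentiation and GATA factors in erythroid and mast cells. A match here describes letters and not a binding site. The sequences below show the S100 pair, the chromosome 9 trio of early granule genes and Mmp8, written 5′ to 3′ on the gene's strand up to the first annotated base, with the matched words in capitals.
S100a8, chr3:90668821-90668977, plus strand: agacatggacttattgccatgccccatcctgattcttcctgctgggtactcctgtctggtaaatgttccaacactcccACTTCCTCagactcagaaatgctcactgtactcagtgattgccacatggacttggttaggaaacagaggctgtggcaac
S100a9, chr3:90695722-90695971, minus strand: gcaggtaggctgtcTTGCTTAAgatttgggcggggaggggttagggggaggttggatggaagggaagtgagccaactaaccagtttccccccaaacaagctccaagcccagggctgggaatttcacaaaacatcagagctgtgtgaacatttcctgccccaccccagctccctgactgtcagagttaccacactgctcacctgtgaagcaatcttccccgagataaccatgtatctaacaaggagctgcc
Camp, chr9:109849618-109849706, minus strand: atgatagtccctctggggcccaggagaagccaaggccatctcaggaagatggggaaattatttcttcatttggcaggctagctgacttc
Ngp, chr9:110419558-110419746, plus strand: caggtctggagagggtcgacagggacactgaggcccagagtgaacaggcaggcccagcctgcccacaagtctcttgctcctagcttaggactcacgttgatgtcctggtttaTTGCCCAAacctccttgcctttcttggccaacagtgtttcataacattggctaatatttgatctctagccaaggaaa
Ltf, chr9:111019042-111019270, plus strand: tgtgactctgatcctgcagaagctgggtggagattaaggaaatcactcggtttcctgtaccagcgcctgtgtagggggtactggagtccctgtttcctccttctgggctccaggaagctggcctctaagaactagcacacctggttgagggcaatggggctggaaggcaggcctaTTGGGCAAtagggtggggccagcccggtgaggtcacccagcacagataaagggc
Mmp8, chr9:7558179-7558428, plus strand: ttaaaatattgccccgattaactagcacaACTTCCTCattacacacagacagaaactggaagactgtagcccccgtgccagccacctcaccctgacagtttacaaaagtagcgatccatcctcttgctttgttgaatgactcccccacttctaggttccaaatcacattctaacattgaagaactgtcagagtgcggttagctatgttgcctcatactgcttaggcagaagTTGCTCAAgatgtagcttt

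In S100a8 the capitals mark the PU.1-type word on the opposite strand (ACTTCCTC), 172 bases before the RefSeq start. In S100a9 they mark the C/EBP-type word TTGCTTAA at 236 bases. Ngp held TTGCCCAA at 138 bases and a second match on the opposite strand at 11 bases, past the stretch shown, and Ltf held TTGGGCAA at 75 bases. Mmp8 held both kinds, ACTTCCTC at 221 bases and TTGCTCAA at 19 bases. Lcn2 held TTGCTCAA at 216 bases and Retnlg TTCTGCAA at 246 bases. None of the 3 words was in the windows of Camp and Cxcr2.

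The alarmin genes had the highest levels and varied several fold within each genotype. S100a8, the smaller calprotectin subunit, stood at 228, 77.8 and 65.5 CPM in WT replicates 1 to 3 and at 255, 301 and 96.6 CPM in KO replicates 1 to 3. KO replicates 1 and 2 lay above every WT library, but KO replicate 3 lay below WT replicate 1, so the groups overlapped. The means were 124 ± 90.4 CPM in WT and 218 ± 107 CPM in KO (SD, n = 3 each), a log2 fold change of 0.81 (SE 0.54, 95% interval -0.42 to 2.05), which did not pass the quasi-likelihood test of edgeR (adjusted p = 0.826, by Benjamini-Hochberg). S100a9, its partner, stood at 329, 107 and 80.9 CPM in WT and at 332, 374 and 134 CPM in KO. The order of the libraries was that of S100a8, again with overlapping groups. Its means were 172 ± 136 CPM in WT and 280 ± 128 CPM in KO, with a log2 fold change of 0.70 (SE 0.55, interval -0.57 to 1.96, edgeR adjusted p = 0.854). Per kilobase of exon, S100a9 was between 1.64 and 1.92 times as abundant as S100a8 in the 6 libraries, while between the lowest and the highest library S100a8 varied 4.59-fold and S100a9 4.62-fold.

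Among the early granule genes the difference between KO and WT means was in the same direction, and the spread within WT was larger still. Ltf, which encodes the iron-binding protein lactoferrin, stood at 162, 35.8 and 33.7 CPM in WT and at 182, 221 and 64.2 CPM in KO. KO replicates 1 and 2 were the highest libraries, WT replicate 1 came next, and KO replicate 3 lay between WT replicate 1 and the other WT libraries. Its means were 77.0 ± 73.2 CPM in WT and 156 ± 81.7 CPM in KO (SD, n = 3 each), and its log2 fold change of 1.02 (SE 0.65, interval -0.49 to 2.52, edgeR adjusted p = 0.819) was the highest of the 10. Ngp, which encodes a cystatin-like protein of the specific granule, stood at 211, 52.4 and 41.6 CPM in WT and at 222, 290 and 81.3 CPM in KO. The same 2 KO libraries exceeded all WT libraries, and the groups overlapped. The log2 fold change was 0.96 (SE 0.65, interval -0.54 to 2.46, edgeR adjusted p = 0.830), from means of 102 ± 94.8 CPM in WT and 198 ± 107 CPM in KO.

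Lcn2, which encodes a siderophore-binding lipocalin, stood at 72.4, 18.0 and 13.3 CPM in WT and at 65.2, 87.4 and 27.1 CPM in KO. Only KO replicate 2 exceeded WT replicate 1. Means of 34.6 ± 32.9 CPM in WT and 59.9 ± 30.5 CPM in KO gave a log2 fold change of 0.79 (SE 0.64, interval -0.68 to 2.26, edgeR adjusted p = 0.864). Camp, which encodes the antimicrobial cathelicidin, stood at 63.5, 11.4 and 13.996 CPM in WT and at 47.8, 67.9 and 22.5 CPM in KO. WT replicate 1 was second only to KO replicate 2, and the 5.58-fold range within WT was the widest within a genotype among the 10 genes. Camp means were 29.6 ± 29.4 CPM in WT and 46.1 ± 22.8 CPM in KO, with a log2 fold change of 0.63 (SE 0.65, interval -0.86 to 2.12, edgeR adjusted p = 0.876).

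Of the mature genes, Mmp9, Cxcr2 and Retnlg had the 3 lowest log2 fold changes of the set, and Mmp8 did not follow them. Mmp8, the neutrophil collagenase, stood at 15.5, 6.38 and 3.10 CPM in WT and at 21.4, 15.6 and 7.66 CPM in KO. KO replicate 2 barely exceeded WT replicate 1, KO replicate 3 lay below it, and the groups overlapped. Its log2 fold change of 0.83 (SE 0.56, interval -0.45 to 2.11, edgeR adjusted p = 0.828) lay among those of the early granule genes, from means of 8.32 ± 6.42 CPM in WT and 14.9 ± 6.89 CPM in KO. Mmp9, the gelatinase of late granules, stood at 73.9, 50.6 and 54.1 CPM in WT and at 97.3, 77.4 and 36.6 CPM in KO. Unlike the early genes it was lowest in a KO library, and KO spanned the whole WT range. Means of 59.5 ± 12.6 CPM in WT and 70.4 ± 30.9 CPM in KO gave a log2 fold change of 0.24 (SE 0.32, interval -0.49 to 0.97, edgeR adjusted p = 0.897).

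Cxcr2, the receptor for the neutrophil-attracting CXC chemokines, stood at 33.3, 18.5 and 19.1 CPM in WT and at 35.7, 34.3 and 15.7 CPM in KO. KO replicate 3 was the lowest library and KO replicates 1 and 2 the highest, so KO spanned the WT range here too. The log2 fold change was 0.27 (SE 0.34, interval -0.51 to 1.06, edgeR adjusted p = 0.895), from means of 23.6 ± 8.37 CPM in WT and 28.6 ± 11.2 CPM in KO. Retnlg, which encodes a secreted resistin-like protein, stood at 45.9, 14.2 and 14.5 CPM in WT and at 40.5, 33.2 and 8.11 CPM in KO. WT replicate 1 was the highest library and KO replicate 3 the lowest, and no KO library exceeded all WT libraries. Its log2 fold change was 0.13 (SE 0.61, interval -1.28 to 1.55, edgeR adjusted p = 0.971), with means of 24.9 ± 18.2 CPM in WT and 27.3 ± 17.01 CPM in KO.

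**Figure D1:**
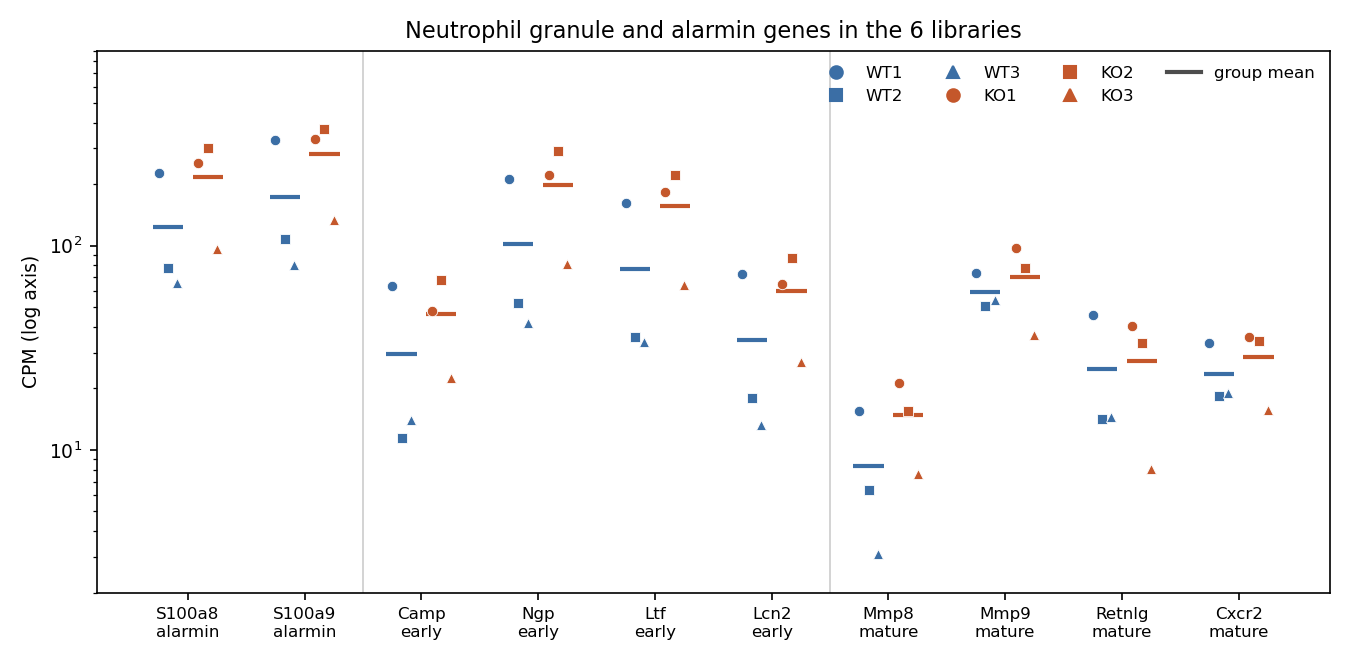
CPM of each of the 10 genes (log axis) in the 3 WT and 3 KO libraries, 1 point per library, with the mean of each genotype as a line. For every gene WT replicate 1 and KO replicates 1 and 2 are the 3 highest libraries, and the points of the genotypes overlap.

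Thus 10 of 10 genes had a log2 fold change above 0, where 50.6% of the 13024 genes tested did. The median was 0.74 over the 10 genes and 0.0030 over all genes tested. Since the 10 genes varied together over the same 6 libraries, their shared direction is a single pattern seen repeatedly. None of the 10 passed at an adjusted p of 0.05, where 4 genes of 13024 (0.0307%) did. None passed at an unadjusted p of 0.05 either, against 6.25% of all genes tested, and unadjusted p-values in edgeR ran from 0.159 for Ltf to 0.836 for Retnlg. The CPM ranges of WT and KO overlapped for 10 of 10 genes, while 11.5% of all genes tested had ranges that did not. The intervals of all 10 included both 0 and a log2 fold change of 0.97 or more, so neither an equal level nor a rise of that size could be told from these libraries.

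The spread between libraries was wide for these genes. The median ratio of the highest to the lowest library was 5.81 over the 10 genes and 1.44 over all genes tested. Standard errors of the log2 fold change ran from 0.32 to 0.65, with a median of 0.586 against 0.158 over all genes tested. The biological coefficient of variation fitted by edgeR had a median of 0.496 against 0.15, and the 10 genes stood between the 83.65 and 98.69 percentiles of all genes. In 10 of 10 genes the 3 highest libraries were WT replicate 1 and KO replicates 1 and 2, which held for 13.7% of all genes tested. The highest library was KO replicate 2 for 6 genes, KO replicate 1 for 3 and WT replicate 1 for 1 (Retnlg), and the lowest was WT replicate 3 for 6, KO replicate 3 for 3 and WT replicate 2 for 1 (Camp). The summed CPM of the 10 genes was 1234, 392.3 and 339.7 in WT and 1299.9, 1502 and 493.8 in KO.

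Leaving out a single library changed the size of the differences. Without WT replicate 1, the median log2 fold change of the 10 genes was 1.62, and 7 of 10 had an unadjusted p under 0.05 where 9.25% of all genes tested did, although the lowest adjusted p was 0.499. Without KO replicate 3 the median was 1.06, with 2 of 10 genes under an unadjusted p of 0.05 against 14.1% of all genes tested and a lowest adjusted p of 0.240. The median was 0.461 without WT replicate 2, 0.363 without WT replicate 3, 0.562 without KO replicate 1 and 0.423 without KO replicate 2. Retnlg turned negative without WT replicate 2 (-0.15), WT replicate 3 (-0.16), KO replicate 1 (-0.29) or KO replicate 2 (-0.035), and Mmp9 without KO replicate 1 (-0.083). The other 8 genes stayed above 0 in each of these fits.

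**Figure D2:**
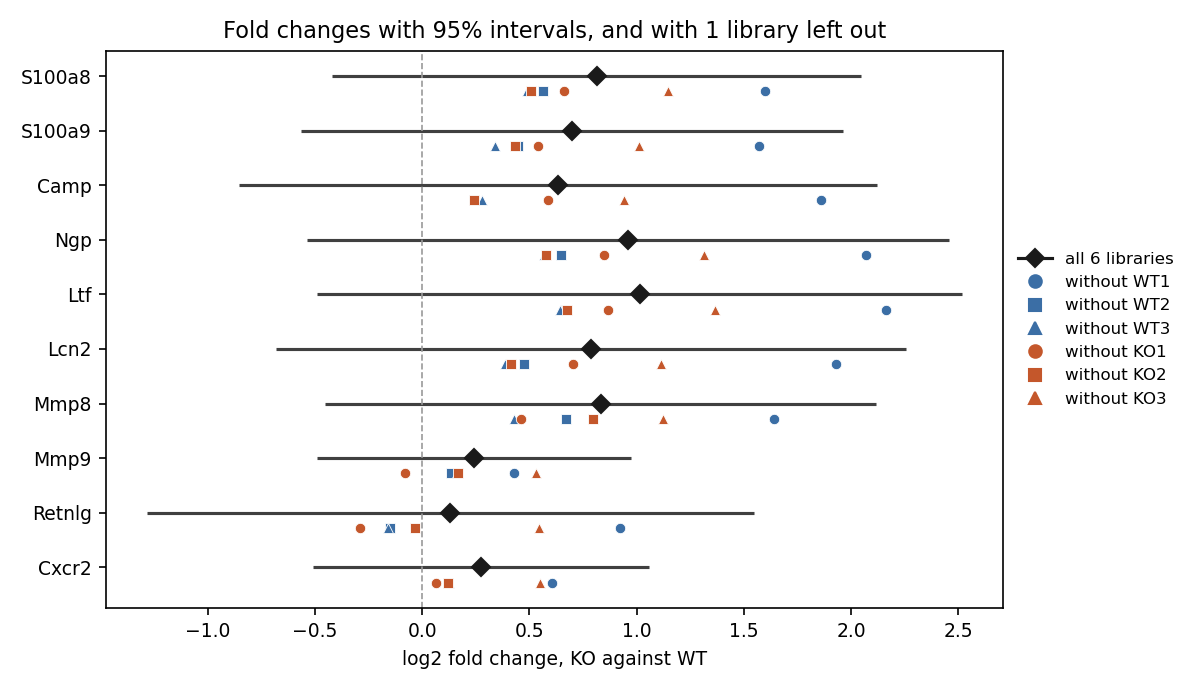
Log2 fold change of KO against WT for each of the 10 genes, with the estimate over all 6 libraries as a diamond, its 95% interval from edgeR as a line, and the estimates with 1 library left out as small symbols. All 10 diamonds lie above 0, from 0.13 (Retnlg) to 1.02 (Ltf), all 10 intervals include 0, and the highest estimate of 9 genes is the one without WT replicate 1.

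Levels were compared between genes per kilobase of exon (CPM per kb). The order of the means over all 6 libraries was S100a9, S100a8, Ngp, Camp, Retnlg, Ltf, Mmp9, Lcn2, Cxcr2 and Mmp8. S100a9 stood at 330 ± 261 CPM per kb in WT and 536 ± 245 in KO, and Mmp8 at 3.43 ± 2.65 in WT and 6.13 ± 2.84 in KO (SD, n = 3 each). Neighbours in the order overlapped in range at every step. Within a library, however, S100a9 exceeded S100a8, S100a8 exceeded Ngp, Ngp exceeded Camp and Cxcr2 exceeded Mmp8 in 6 of 6 libraries. The middle of the order was not fixed: Camp exceeded Retnlg in 3 of 6 libraries, Retnlg exceeded Ltf in 4, Ltf exceeded Mmp9 in 4, Mmp9 exceeded Lcn2 in 4 and Lcn2 exceeded Cxcr2 in 5.

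The early granule genes were set against the mature ones within each library. Summed CPM of Camp, Ngp, Ltf and Lcn2 was 508, 118 and 103 in WT and 518, 667 and 195 in KO. Summed CPM of Mmp8, Mmp9, Retnlg and Cxcr2 was 169, 89.6 and 90.8 in WT and 195, 161 and 68.0 in KO. The ratio of early to mature was 3.02, 1.31 and 1.13 in WT and 2.66, 4.15 and 2.87 in KO. WT replicate 1 lay inside the KO range, and the other WT libraries lay below all KO libraries. The means were 1.82 ± 1.04 in WT and 3.23 ± 0.809 in KO, and the geometric means differed 1.92-fold (0.94 on the log2 scale, with a pooled SD of 0.592). No p is given for this ratio, because it is a score over genes chosen with earlier results of these data known. KO replicate 3, which was among the 3 lowest libraries for every one of the 10 genes, had a ratio between those of KO replicate 1 and WT replicate 1, while WT replicates 2 and 3 had the 2 lowest ratios. Per kilobase of exon the ratio was 2.86, 1.60 and 1.42 in WT and 2.77, 4.44 and 3.87 in KO, again with WT replicate 1 inside the KO range. The ratio of the S100 pair to the mature genes ran likewise, at 3.30, 2.06 and 1.61 in WT and 3.01, 4.20 and 3.39 in KO.

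**Figure D3:**
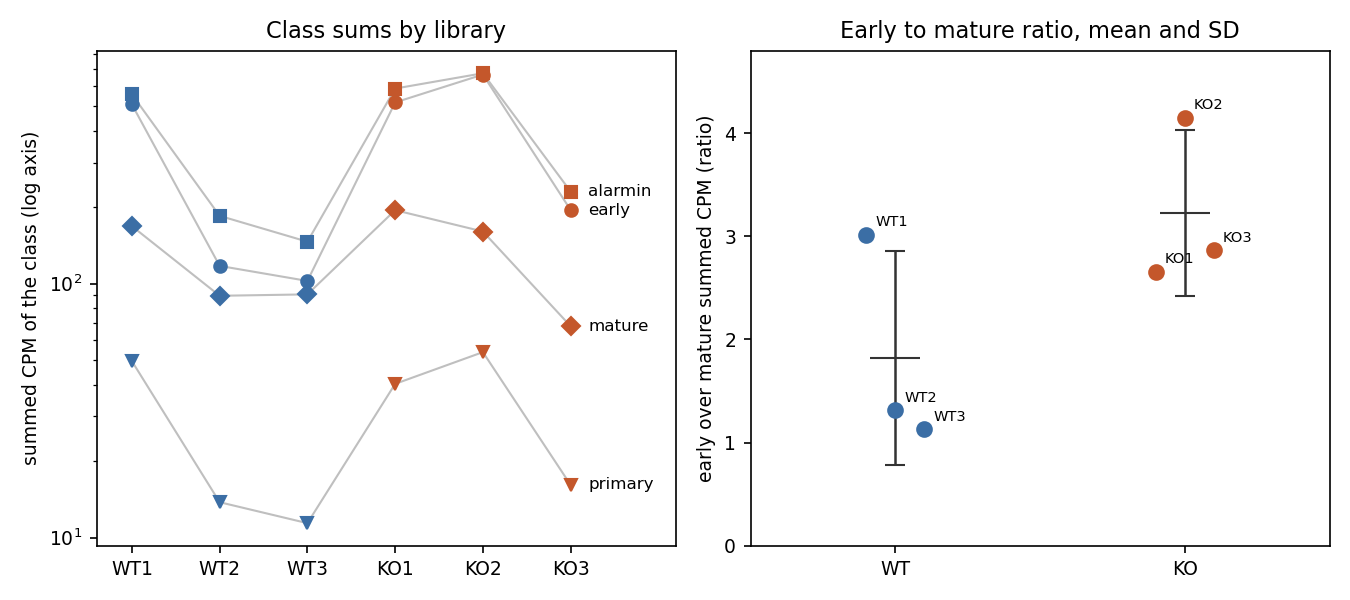
Left, summed CPM (log axis) of the early, mature, alarmin and primary granule genes in each library. Right, the ratio of early to mature summed CPM, 1 point per library with the mean and SD of each genotype. The ratio is 1.13 and 1.31 in the 2 low WT libraries, 3.02 in WT replicate 1 and between 2.66 and 4.15 in KO.

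Gene by gene, the KO mean of the ratio was higher for 15 of 16 pairs of an early and a mature gene, the exception being Camp over Mmp8 (3.47 in WT and 3.18 in KO). For the other pairs with Mmp8 the WT and KO means were 11.8 and 13.2 (Ngp), 8.97 and 10.4 (Ltf) and 3.93 and 4.06 (Lcn2), with overlapping libraries. All KO libraries lay above all WT libraries for 3 of the 16 pairs, and all 3 had Retnlg as the mature gene. For single genes 11.5% of all tested did not overlap, and no such share was computed for ratios of genes, so the count is a description. Ngp over Retnlg was 4.596, 3.68 and 2.87 in WT and 5.48, 8.74 and 10.01 in KO, and Ltf over Retnlg was 3.52, 2.51 and 2.32 in WT and 4.50, 6.65 and 7.92 in KO. Lcn2 over Retnlg was 1.58, 1.26 and 0.91 in WT and 1.61, 2.63 and 3.34 in KO, so KO replicate 1 exceeded WT replicate 1 only slightly. The 16 pairs share 8 genes and are not independent of each other.

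Genes of the earlier primary granule were followed next, since they mark the precursors that precede specific granules. Of 8 listed genes 6 passed the filter, 6 of 6 had a log2 fold change above 0 with a median of 0.57, and none passed the test. Mpo, which encodes myeloperoxidase, averaged 10.8 ± 9.97 CPM in WT and 16.3 ± 8.21 CPM in KO, Elane (neutrophil elastase) 2.94 ± 3.01 and 3.75 ± 2.07 CPM, and Gstm1 4.86 ± 2.59 and 5.59 ± 2.47 CPM (SD, n = 3 each). The 3 highest libraries of all 6 tested genes were the same as for the 10 genes above. The ratio of the summed CPM of the 8 genes to that of the early granule genes was 0.0974, 0.117 and 0.111 in WT. In KO it was 0.0779, 0.0806 and 0.0826, below all WT libraries. Over the mature genes the ratio was 0.294, 0.154 and 0.126 in WT and 0.207, 0.335 and 0.237 in KO, with overlap. Neither a p nor a share over other ratios was computed, so these values are a description.

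In most other neutrophil genes the same 3 libraries were high. Of 27 further specific and gelatinase granule genes, 20 passed the filter, 18 had a log2 fold change above 0 and 2 below, with a median of 0.37 and no call in edgeR. In 17 of the 20, the 3 highest libraries were the ones named above. The most abundant were Lyz2 (lysozyme, 0.22), Itgb2 (-0.054) and Cyba (-0.092), the last pair being an integrin and an oxidase subunit that many leukocytes use. Adam8, a membrane metalloproteinase of leukocytes singled out after its values were seen, was counted 374, 374 and 373 times in the WT libraries and 574, 551 and 555 times in the KO libraries. Its log2 fold change was 0.58 (SE 0.083, edgeR adjusted p = 0.212), and it passed in DESeq2 (adjusted p = 0.00659), where 58 of 13024 genes passed, and in edgeR without KO replicate 3, where 94 of 13302 passed. All KO libraries lay above all WT libraries, as in the 11.5% of all genes whose ranges did not overlap, and Adam8 did not follow the library pattern of the granule genes. Of 22 surface and mature neutrophil genes, 20 passed the filter, 16 lay above 0 and 4 below, with a median of 0.34 and no call, and the median was -0.030 without KO replicate 2 and 0.66 without WT replicate 1. Cxcr4 (-0.093) and Selplg (-0.28), which lymphocytes also express, were among the most abundant of these. Csf3r, the G-CSF receptor, was counted 1467, 913 and 889 times in WT against 1985, 1499 and 772 times in KO, and Ly6g, the defining surface marker of mouse neutrophils, only 23, 14 and 1 times in WT against 30, 16 and 12 times in KO. Of the exon words of Ly6g, 9.55% were shared with other genes, with Ly6i, Ly6c2 and Ly6a sharing the most.

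Regulators of granule formation were read next. Of 15 listed genes 13 passed the filter, with 10 above 0, 3 below, a median of 0.35 and no call. Spi1, which encodes PU.1, had a log2 fold change of 0.35, Csf3r of 0.38 and Cebpb of 0.077. Of 26 ligands, receptors and inhibitors of the members' products, 17 passed the filter, with 8 above 0, 9 below, a median of -0.010 and no call. The most abundant were the receptor kinases Grk2 (-0.020) and Grk6 (-0.096) and the cytokine Mif (-0.18). Cxcl5 and Cxcl15, which encode CXCR2 ligands, Timp4 and Itln1 were at 0 counts in all 6 libraries. Of 14 other S100 genes, 6 passed the filter, with 4 above 0, 2 below, a median of 0.16 and no call. The 2 below 0, S100a10 and S100a13, were the ones with an unadjusted p under 0.05 in edgeR (6.25% of all genes tested). That median was -0.017 without KO replicate 2, -0.010 without WT replicate 3 and 0.45 without WT replicate 1. The most abundant were S100a11 (0.24), S100a10 (-0.31) and S100a4 (0.33).

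Markers of other cell types were read beside these results. Summed CPM of the 8 neutrophil markers, of which 6 are members of the set, ran from 347 to 895 in WT and from 388 to 1017 in KO, and that of the granulocyte precursor markers, led by Mpo, Elane and Cebpe, from 8.30 to 45.2 and from 13.9 to 48.7. The 3 libraries high in granule genes were also the highest for 8 of 8 neutrophil, 6 of 6 precursor, 6 of 7 monocyte, 5 of 6 red pulp macrophage and 4 of 5 eosinophil markers tested. They were the highest for 0 of 8 erythroid, 0 of 5 CD8 T cell, 1 of 5 cDC1, 1 of 3 platelet and 1 of 3 basophil and mast cell markers tested. The B cell genes Cd79a, Ms4a1 and Pax5 were highest in the same 3 libraries too, so the pattern was not limited to myeloid markers. Summed CPM of the CD8 T cell markers by library was 2031, 2820 and 2720 in WT and 1856, 1343 and 2706 in KO. WT replicate 1 and KO replicates 1 and 2, the high libraries for all 10 members, were thus the lowest for CD8 T cell markers. Monocyte markers (Lyz2, Ly6c2 and Csf1r the most abundant) summed to between 1069 and 1776 CPM in WT and between 1102 and 1848 CPM in KO. Erythroid markers, led by Hbb-bs, Hba-a1 and Hba-a2, summed to between 306 and 887 CPM in WT and between 500 and 2685 CPM in KO. Platelet markers (Itga2b, Ppbp and Pf4) summed to between 9.11 and 11.05 CPM in WT and between 8 and 13.7 CPM in KO. Basophil and mast cell markers (Kit, Gata2 and Mcpt8 the most abundant) summed to between 22.4 and 24.6 CPM in WT and between 29.8 and 40.9 CPM in KO. For single genes 11.5% of all tested did not overlap, and no such share was computed for sums. Cpa3, Fcer1a and Ms4a2, also in this list, did not pass the filter on low counts. Kit made up most of that sum in each library, at 16.6 to 20.96 CPM in WT and 24.1 to 32.04 CPM in KO, whereas Gata2 and Mcpt8 overlapped between genotypes. Of the 3 tested, Kit and Gata2 had an unadjusted p under 0.05 in edgeR, where 6.25% of all genes tested did, and none passed after adjustment. The part of these other cell types in the differences between libraries was not tested.

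**Figure D4:**
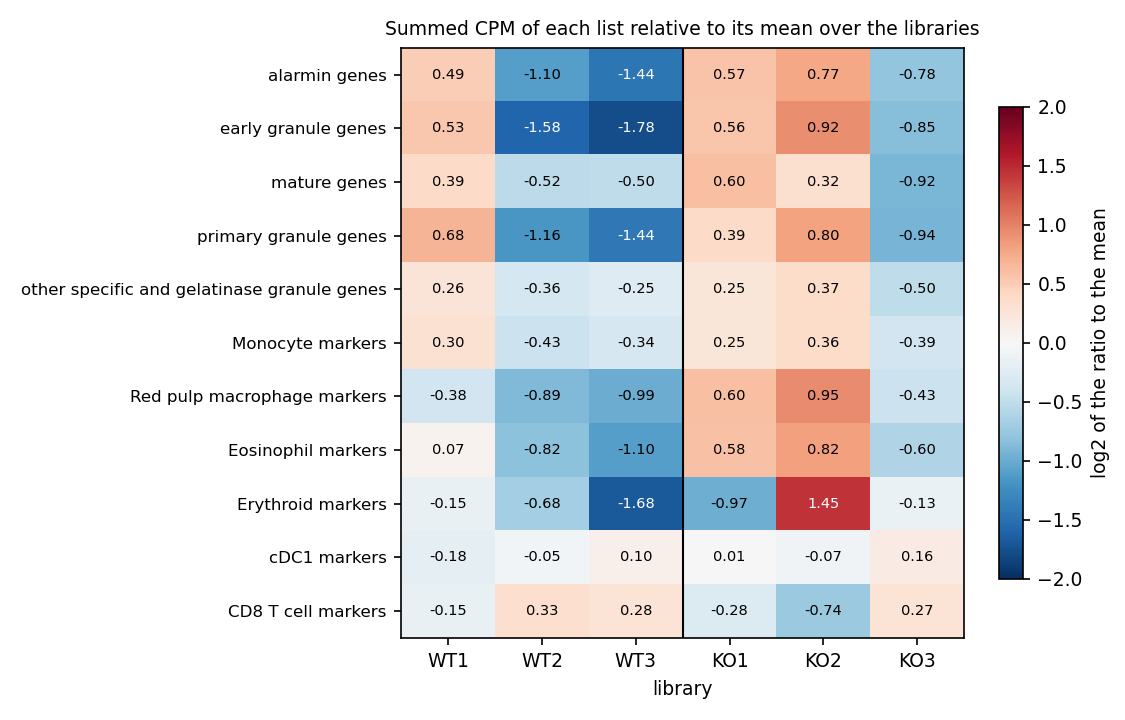
Summed CPM of 4 classes of granule gene and of 7 other lists in each library (columns), as the log2 ratio to the mean of the list over the 6 libraries, with higher values in red and lower in blue. For the early granule genes WT replicate 3 is lowest at -1.78 and KO replicate 2 highest at 0.92, while CD8 T cell markers are lowest in KO replicate 2 at -0.74.

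The 5 genes outside the set whose levels were most like the members' were found by Pearson's r, over 6 libraries, of log2(CPM + 0.5) with the mean standardised level of the 10 members. They were Igkv8-24, an immunoglobulin segment (0.996), Dusp18, a phosphatase (0.995), Icosl, a costimulatory ligand (0.994), Cma1, a mast cell chymase (0.993), and Ccl9, a chemokine (0.993). Icosl stood at 99.4, 59.6 and 59.8 CPM in WT and at 98.7, 98.1 and 61.0 CPM in KO, and Ccl9 at 19.9, 9.34 and 8.17 CPM in WT and at 23.9, 24.5 and 8.80 CPM in KO. The libraries form a high and a low set of 3 for these genes as for the members, and r mostly measures that split.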

How the data were processed

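RNA of 3 WT and 3 KO libraries was analysed from expected counts per Ensembl gene, as deposited by the authors. These are estimated read counts, which can be fractions. The unit was read from the values, with fractions in 3527 to 4925 genes of a library. The submitters' processing notes name GRCm38 and mm10, while aligner, counter, annotation and strand are not given in the sources used here. Of 44678 identifiers, 44121 (98.75%) had a symbol in the reference table.

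Counts were rounded and fitted in R 4.3.3 with edgeR 4.0.16 (TMM factors 0.989 to 1.01, filterByExpr at its minimum count of 10 and total of 15, quasi-likelihood test, Benjamini-Hochberg adjustment over 13024 genes, threshold 0.05). CPM used TMM-scaled totals, and CPM per kb the union of exons in GENCODE M21. Correlations used log2(CPM + 0.5). Alternatives were DESeq2 1.42.0, limma 3.58.1 voom, upper-quartile scaling, other filters, a replicate block and each library left out. The procedure was tested on simulated data. The 10 genes and all lists (primary granule, other specific and gelatinase granule, surface and mature neutrophil, regulators, ligands with receptors and inhibitors, other S100, and cell type markers) were chosen with earlier results of these data known. From each list up to 3 genes with the highest CPM per kb were named, and the 5 non-members most correlated with the members. Other list genes were named outside this rule with their values known, among them Ly6g, Adam8, Lrp1, S100a13, Siglecf, Il5ra, Slc40a1, Pax5, Cxcl5, Cxcl15, Timp4 and Itln1. Some genes that this rule names, and the sum of 1 marker list, are not reported here.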

Additional observations from a re-analysis of the deposited data

How the results depend on the processing

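None of the 10 genes passed an adjusted p of 0.05 in any of the 12 alternatives, that is DESeq2, limma voom, upper-quartile scaling, no filter, a filter at a mean of 10 counts, a replicate block and each of 6 libraries left out. The median log2 fold change of the 10 genes ran from 0.722 to 0.907 in the alternatives that kept all libraries. Retnlg ran from -0.29 to 0.92 and Mmp9 from -0.083 to 0.53 with 1 library left out, and these 2 of the 10 changed sign. Retnlg was -0.15, -0.16, -0.29 and -0.035 without WT replicate 2, WT replicate 3, KO replicate 1 and KO replicate 2, and Mmp9 was -0.083 without KO replicate 1. The primary granule median ran from 0.12 (without KO replicate 2) to 1.62 (without WT replicate 1) with 1 library left out, against 0.57. The medians of the other lists then ran from 0.12 to 0.73 (other granule genes), from -0.030 to 0.66 (surface and mature genes), from 0.14 to 0.52 (regulators), from -0.040 to -0.010 (ligands, receptors and inhibitors) and from -0.017 to 0.45 (other S100 genes). The log2 difference of the early to mature ratio ran from 0.67 to 1.38 with 1 library left out, and was 0.47 with the S100 pair added to the mature genes.

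Over all genes, 4 passed in edgeR, 58 in DESeq2 and 12 without the filter, and between 2 and 94 with 1 library left out (94 without KO replicate 3, 2 without WT replicate 1 or 3). In the related lists 0 genes passed in edgeR and 1 in DESeq2 (Adam8), and between 0 and 2 with 1 library left out (Adam8 and Lrp1 without KO replicate 3). Replicate numbers are shared between genotypes. For same-numbered libraries, deviations from the genotype mean correlated at -0.0101, -0.199 and 0.111, and 1 of 6 libraries correlated best with its own number. With 3 libraries per genotype, this check over all genes tested cannot show whether the numbers mark pairs. With the replicate number as a block, 9 genes passed and none of the 10, whose lowest adjusted p was 0.675, while 6 of the 10 had an unadjusted p under 0.05 against 5.26% of all genes tested. The causes of these changes were not tested. With 3 libraries per genotype, standard errors of the 10 genes reached 0.65 on the log2 scale, against a median of 0.158 over all genes tested. This limits what can be seen for the 10 genes.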

Other observations

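Of the 5 eosinophil markers, 4 had a log2 fold change above 0 and 1 below. Epx and Prg2, which encode eosinophil granule proteins, averaged 2.91 ± 2.53 and 9.05 ± 8.02 CPM in WT and 8.001 ± 3.58 and 22.7 ± 13.1 CPM in KO (SD, n = 3 each). Their log2 fold changes of 1.44 (SE 0.60) and 1.32 (SE 0.66) did not pass edgeR's test (adjusted p = 0.786 and 0.816). Ccr3, the eotaxin receptor, had a log2 fold change of 0.79 (SE 0.28, adjusted p = 0.749), while Il5ra stood at 0.11 (SE 0.59) and Siglecf at -0.32 (SE 0.45). Summed CPM of the 5 eosinophil markers ran from 25.4 to 57.3 in WT and from 35.9 to 96.1 in KO, so the groups overlapped.

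Red pulp macrophage markers summed to between 346 and 529 CPM in WT and between 510 and 1330 CPM in KO. All 6 had a log2 fold change above 0, with a median of 1.26, and an unadjusted p under 0.05 in edgeR. Over all genes tested, 50.6% had a log2 fold change above 0 and 6.25% an unadjusted p under 0.05. Among them Hmox1, which degrades heme, averaged 122 ± 31.004 CPM in WT and 292 ± 128 CPM in KO, Cd5l 31.6 ± 12.5 and 75.9 ± 29.9 CPM and Adgre1 51.6 ± 10.8 and 91.7 ± 43.5 CPM. None passed after adjustment, with the lowest adjusted p at 0.427 for Slc40a1, the iron exporter.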
